A study of Rattus norvegicus with 4 samples.

Results

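Cholesterol is built in the liver from acetyl-CoA through mevalonate, isoprenoid diphosphates, squalene and lanosterol, and 28 genes of this route, of its control and of sterol uptake and storage are described here. They were taken by symbol from a list drawn up with earlier results of these data known, and measured values were no part of the rule. Of the 28 genes, 27 had a named probe, 39 probes in all, and 26 genes with 35 probes passed a filter on dim probes (no near-background flag in either rat of some group), among 8985 named genes that passed the same filter. Npc1l1, the sterol importer of the gut, had no named probe and was not analysed here. Soat1, which esterifies cholesterol in many cell types, was near background on all 4 arrays and dropped out. Mylip passed through the thiamine rats alone, a filter that favours a difference, so counts and medians over members below are of the other 25, each above background in all 4 livers, and are set beside the 8217 named genes that were so too.

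Liver RNA came from male Otsuka Long-Evans Tokushima Fatty (OLETF) rats, which grow obese and then diabetic without a special diet. The thiamine group (2 rats on arrays) started at 4 weeks of age and drank water with 0.2% thiamine, vitamin B1, or 2 g per L, over 51 weeks. The untreated group (2 rats on arrays) drank water with 0% added thiamine. All rats ate standard chow and were 55 weeks old when killed after a fast of 16 h. Each of the 4 rats had its own 1-colour CodeLink array, no RNA was pooled, and the study kept 8 rats per group, housed 2 to a cage, so 2 per group is the limit on precision. Levels below are normalised log2 intensities, in which 1 unit is a 2-fold step, and levels of different probes are not comparable. Between 18176 and 20071 of 33849 gene probes per array were above background. The 8 hepatocyte markers on a marker list were all measured, with Alb, Ttr, Tf and Serpina1 saturated on every array. In bulk liver RNA, fewer cells of a type and less RNA per cell cannot be told apart.

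As background, the genes of this route are largely driven by the transcription factor SREBP-2, made by Srebf2. Its precursor sits in the endoplasmic reticulum with the escort protein Scap. When sterols are plentiful the Insig proteins hold that complex back, and when sterols run low it moves to the Golgi and is cut, so that many enzymes of the route are switched on together. Insig1 is itself a SREBP target, which closes the loop.

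No member passed the test between thiamine and untreated livers. Limma called 0 of 26 members and 0% of 18664 probes below an adjusted p of 0.05. Among members Mvd had the lowest adjusted p, 0.55. Differences ran from -0.61 for Mvd to 0.65 for Tm7sf2 (log2, thiamine less untreated). Above 0 were 15 of the 25 members (49.1% of all genes were) and below 0 were 10, with a median of 0.13 for the members and -0.0052 for all genes. At an unadjusted p under 0.05, 3 of the 25 members were higher, Cyp51, Tm7sf2 and Msmo1, where 3.05% of all genes were. Mvd was lower at that level, which 2.76% of all genes reached. The members' median moved with single rats: it was 0.011 without untreated rat 1, 0.33 without untreated rat 2, 0.037 without thiamine rat 1 and 0.21 without thiamine rat 2.

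The size that these arrays can bound was moderate. The moderated standard error (SE), which limma draws towards the spread over all probes, lay between 0.18 and 0.30 for the members. For 21 of the 25 members the 95% interval built on this SE excluded a 2-fold step in either direction. The median distance between the untreated rats was 0.39 for the members and 0.22 for all genes, so an SE drawn towards all probes can make some intervals too narrow. Hmgcs1, Insig1 and Insig2 were among the 21, although their untreated rats were 1.98-, 1.90- and 2.06-fold apart. The other 4 were Mvd (-1.08 to -0.15), Tm7sf2 (0.06 to 1.24), Msmo1 (0.07 to 1.06) and Ebp (-0.05 to 1.05). In 6 of the 25 members both thiamine rats were above both untreated rats, a separation that 17.4% of all genes had, and in 2 members, Mvd and Lss, both were below, against 19.4% of all genes.

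**Figure D1:**
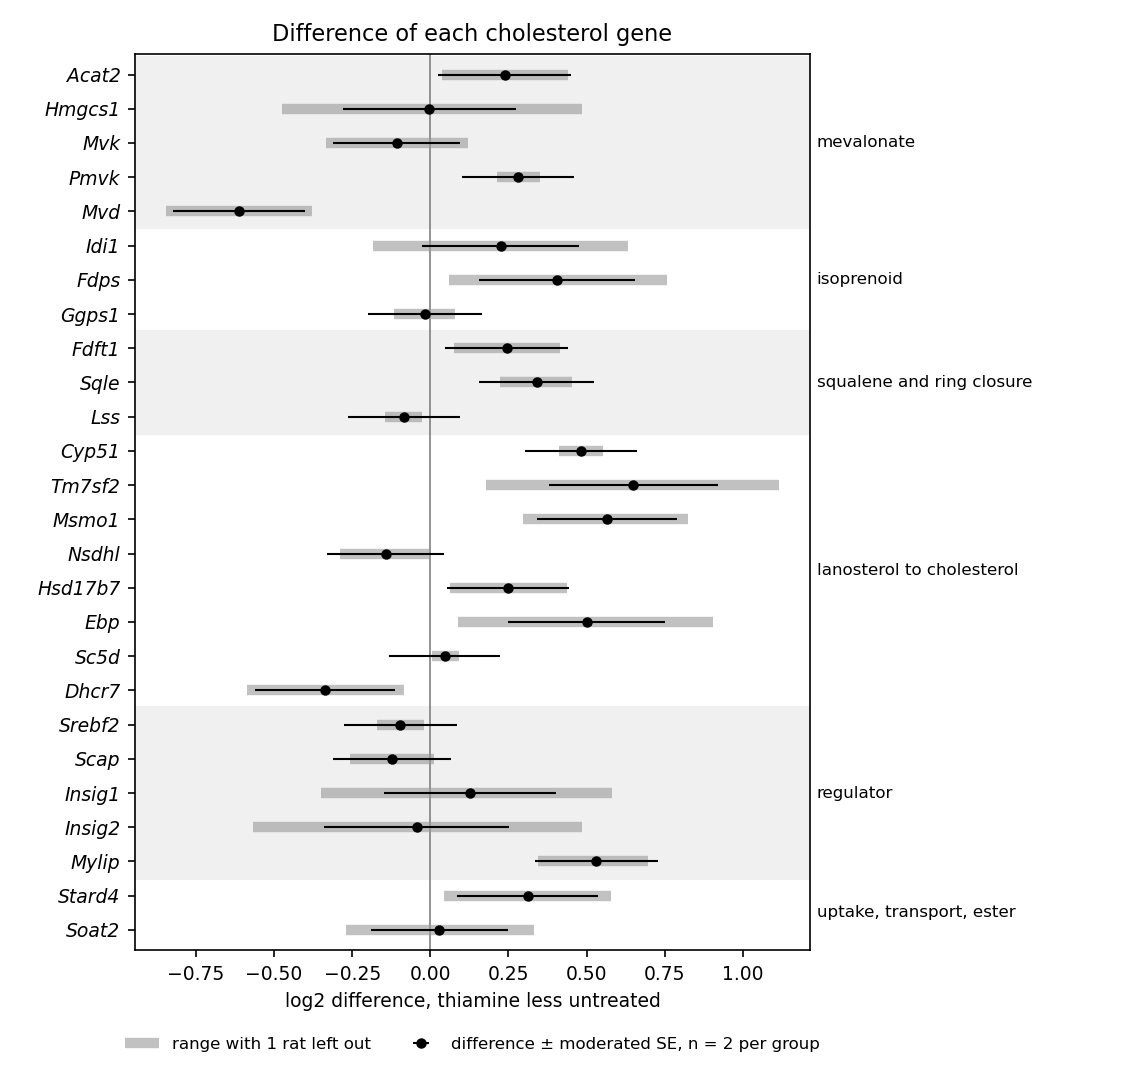
Difference in log2 intensity, thiamine less untreated, of the 26 measured genes in pathway order (points, bars are the moderated SE, n = 2 per group), with the range over the 4 fits that leave out 1 rat (grey). Mvd lies lowest at -0.61 and Tm7sf2 highest at 0.65, and the grey ranges of Hmgcs1, Insig1 and Insig2 reach to both sides of 0.

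At the first steps, Acat2 and Hmgcs1, rats of the same group could lie further apart than the group means. Acat2, which joins acetyl units, was at 9.51 and 9.11 in thiamine rats 1 and 2, against 8.88 and 9.26 in untreated rats 1 and 2. Hmgcs1, which makes the HMG-CoA that is reduced to mevalonate, was at 14.44 in both thiamine rats, against 13.95 in untreated rat 1 and 14.94 in untreated rat 2. The untreated rats thus lay on either side of the thiamine rats, 1.98-fold apart, and the difference of the means was -0.0031 ± 0.28. A second, dimmer Hmgcs1 probe read 9.70 and 10.05 in the thiamine rats, against 8.89 and 10.29 in the untreated rats, and so kept untreated rat 1 lowest and untreated rat 2 highest.

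For the kinases that phosphorylate mevalonate in turn, the untreated rats were close to each other. Mvk was at 10.91 and 10.46 in the thiamine rats, against 10.77 and 10.82 in the untreated rats, with a difference of -0.11 ± 0.20. Pmvk was at 11.23 and 11.38 in the thiamine rats, against 11.01 and 11.04 in the untreated rats, with no overlap and a difference of 0.28 ± 0.18. Mvd, the decarboxylase that yields isopentenyl diphosphate, was at 9.30 and 9.04 in the thiamine rats, against 9.55 and 10.01 in the untreated rats. Both thiamine livers were below both untreated livers, with a difference of -0.61 ± 0.21 (unadjusted p = 0.0145). Its second probe gave -0.45, without untreated rat 2 the brighter probe gave -0.38, and without untreated rat 1 it gave -0.85.

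Of the isoprenoid genes, Idi1 and Fdps had a gap between the untreated rats. Idi1, which isomerises isopentenyl diphosphate, was at 10.62 and 10.46 in the thiamine rats, against 9.91 and 10.73 in the untreated rats. Fdps, which makes farnesyl diphosphate, was at 13.00 and 12.59 in the thiamine rats, against 12.03 and 12.74 in the untreated rats. In both genes untreated rat 1 was lowest by a clear step and untreated rat 2 lay within or above the range of the thiamine rats. Their differences were 0.22 ± 0.25 and 0.40 ± 0.25. The Idi1 spot of untreated rat 2 carried a contamination flag. With flagged spots left out the Idi1 difference was 0.64, which rests on untreated rat 1 alone in its group. Ggps1, which feeds protein prenylation and not sterols, was at 8.39 and 8.19 in the thiamine rats, against 8.26 and 8.35 in the untreated rats, a difference of -0.02 ± 0.18.

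By their brightest probes, the genes around squalene had untreated rats closer to each other than Idi1 and Fdps had. A dimmer Lss probe had them 0.51 apart. Sqle, the epoxidase and a control point of the route, was at 9.63 and 9.56 in the thiamine rats, against 9.14 and 9.37 in the untreated rats, with no overlap and a difference of 0.34 ± 0.18. Fdft1, the squalene synthase, was at 9.23 and 8.89 in the thiamine rats, against 8.69 and 8.93 in the untreated rats, 0.24 ± 0.20 apart. Lss, which closes the ring to lanosterol, was at 8.44 and 8.49 in the thiamine rats, against 8.49 and 8.61 in the untreated rats. Its 3 probes gave differences between -0.20 and 0.23, so the direction of Lss was not settled by these arrays.

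The steps from lanosterol to cholesterol held 8 of the 25 members, and 3 of the 4 with an unadjusted p under 0.05. These 3 were higher, where 3.05% of all genes were. Cyp51, the sterol demethylase that acts first on lanosterol, was at 11.09 and 10.96 in the thiamine rats, against 10.59 and 10.49 in the untreated rats. The pairs did not overlap, its difference was 0.48 ± 0.18 (1.40-fold, adjusted p = 0.60), and it lay between 0.41 and 0.55 with any 1 rat left out. The Cyp51 spot of untreated rat 2 carried a contamination flag. With flagged spots left out, which kept untreated rat 1 alone in its group, the Cyp51 difference was 0.43. Tm7sf2, the sterol reductase that follows, was at 11.74 and 11.69 in the thiamine rats, against 11.54 and 10.59 in the untreated rats. Here untreated rat 2 was the low one, so that the difference of 0.65 ± 0.27 became 0.18 without it and 1.12 without untreated rat 1. The Tm7sf2 spots of thiamine rat 1 and untreated rat 1 were flagged as contaminated. With flagged spots left out the difference was 1.10, which sets thiamine rat 2 alone against untreated rat 2, the low one. Msmo1, the methylsterol oxidase, was at 12.39 and 12.03 in the thiamine rats, against 11.38 and 11.91 in the untreated rats. Its lowest liver was again untreated rat 1, and the difference of 0.57 ± 0.22 was 0.30 without that rat and 0.83 without untreated rat 2.

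**Figure D2:**
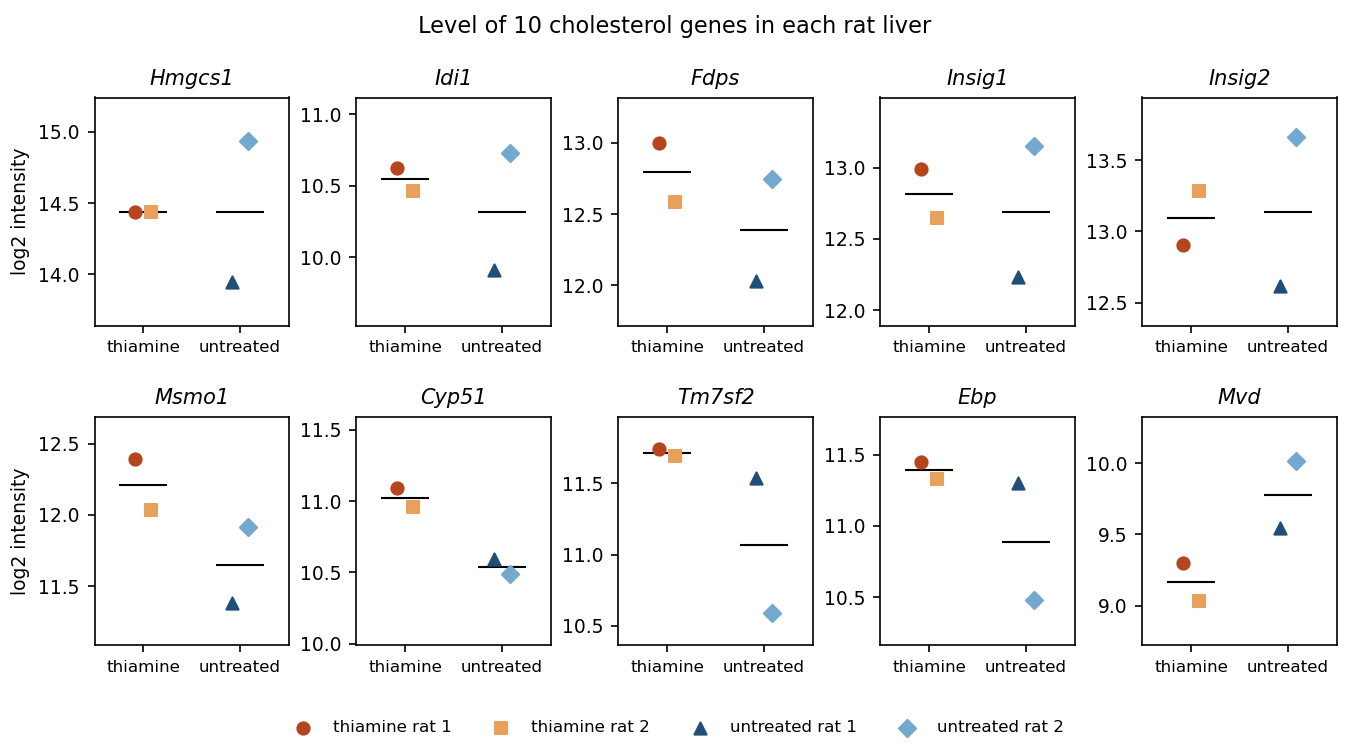
Normalised log2 intensity of 10 genes in each rat, thiamine left and untreated right, with the group mean as a line; every panel spans the same 1.6 log2 units. Untreated rat 1 is lowest for Hmgcs1, Idi1, Fdps, Insig1, Insig2 and Msmo1, untreated rat 2 is lowest for Cyp51, Tm7sf2 and Ebp, and the thiamine rats are lowest for Mvd.

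Ebp, the sterol isomerase, was at 11.45 and 11.33 in the thiamine rats, against 11.30 and 10.48 in the untreated rats. As with Tm7sf2 the gap came from untreated rat 2: the difference was 0.50 ± 0.25, and 0.09 without that rat. Dhcr7, the reductase that finishes cholesterol, was at 10.08 and 9.57 in the thiamine rats, against 9.96 and 10.36 in the untreated rats, overlapping, with a difference of -0.34 ± 0.22. Hsd17b7, a ketosterol reductase, was at 8.05 and 7.92 in the thiamine rats, against 7.55 and 7.92 in the untreated rats, 0.25 ± 0.20 apart. Nsdhl, the decarboxylating dehydrogenase, and Sc5d, the desaturase before Dhcr7, differed by -0.14 ± 0.19 and 0.05 ± 0.18. Along these 8 late steps 6 genes were above 0 and 2 below, with a median of 0.37.

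The genes that sense sterols gave no common direction between the groups. Srebf2 was at 10.82 and 10.88 in the thiamine rats, against 11.02 and 10.87 in the untreated rats, and Scap was at 10.74 and 10.88 in the thiamine rats, against 11.07 and 10.80 in the untreated rats. Their differences of -0.10 ± 0.18 and -0.12 ± 0.19 were small beside their errors. Insig1 was at 12.99 and 12.65 in the thiamine rats, against 12.23 and 13.15 in the untreated rats. Insig2 was at 12.90 and 13.29 in the thiamine rats, against 12.62 and 13.66 in the untreated rats. For both retention factors untreated rat 1 was the lowest liver and untreated rat 2 the highest, 1.90-fold apart for Insig1 and 2.06-fold for Insig2. The group differences were 0.13 ± 0.28 and -0.04 ± 0.30. All 3 kept Insig2 probes had untreated rat 1 lowest and untreated rat 2 highest, although their group differences ran from -0.22 to 0.23.

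Mylip, a ubiquitin ligase that marks lipoprotein receptors for breakdown, was measured in 1 group only. It was at 7.31 and 7.66 in the thiamine rats, against 7.05 and 6.85 in the untreated rats, where it was not well above background. The lowest signals above background of any kept probe on those untreated arrays were 7.25 and 7.24. With the untreated readings raised to these levels, Mylip was 1.18-fold higher in the thiamine livers. These levels are not a detection limit of the Mylip probe, and the filter favours a difference, so this ratio is no firm minimum. The fit's adjusted p of 0.59 rests on the near-background readings and does not test the ratio. That ratio was 1.33-fold without thiamine rat 1 and 1.04-fold without thiamine rat 2. Stard4, a cytosolic sterol carrier, was at 9.97 and 9.61 in the thiamine rats, against 9.21 and 9.74 in the untreated rats, a difference of 0.31 ± 0.22. Soat2, which makes cholesteryl esters in hepatocytes, was at 12.15 and 12.10 in the thiamine rats, against 11.79 and 12.40 in the untreated rats, a difference of 0.03 ± 0.22. Both had untreated rat 1 as the lowest of the 4 livers.

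**Figure D3:**
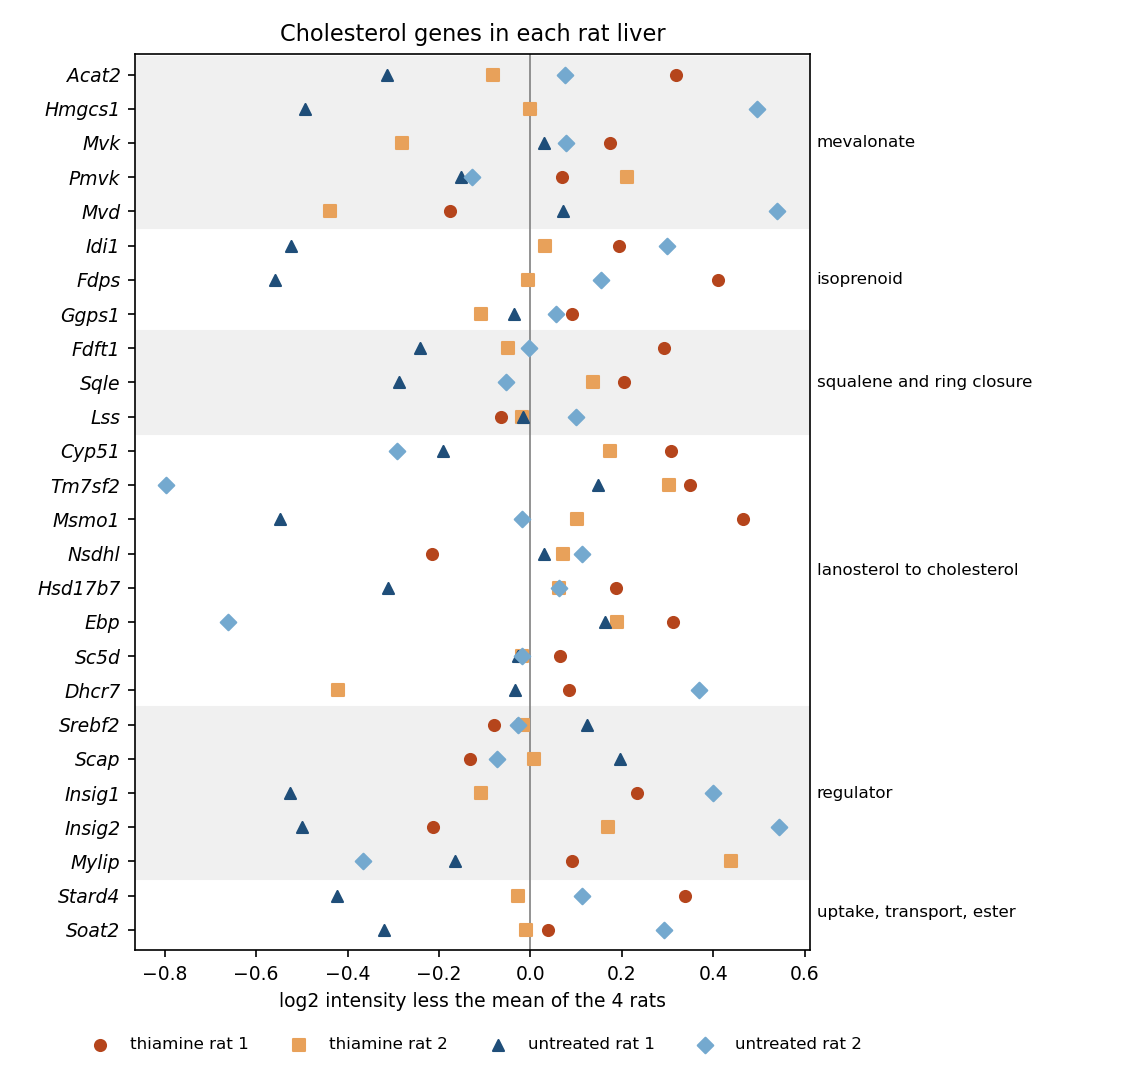
Log2 intensity of each measured gene in each rat, less the mean of the 4 rats, in pathway order; circles and squares are thiamine rats 1 and 2, triangles and diamonds untreated rats 1 and 2. Triangles lie furthest left for 14 of the 26 genes, while diamonds lie furthest left for Cyp51, Tm7sf2, Ebp and Mylip, the last near background in both untreated rats.

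For 10 of the 25 members the untreated rats lay over 0.5 apart, while for the others they were closer. Untreated rat 1 was the lowest of the 4 livers for 14 of 25 members, against 29.2% of all genes, and untreated rat 2 for 3 members, against 24.9% of all genes. Untreated rat 1 was below untreated rat 2 by over 0.5 for 8 members, Hmgcs1, Idi1, Fdps, Msmo1, Insig1, Insig2, Stard4 and Soat2, a gap that 7.91% of all genes had. The reverse gap was found for Tm7sf2 and Ebp, and for 5.27% of all genes. At the other end, Mvk, Pmvk, Ggps1, Nsdhl and Sc5d had untreated rats at most 0.09 apart. The median distance between the untreated rats was 0.39 for the members and 0.22 for all genes. Between the thiamine rats it was 0.16 for the members and 0.15 for all genes. With 1 rat on each side there is no test of these gaps, and members that share a regulator are not independent of each other.

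Set against each untreated rat in turn, the thiamine mean gave different pictures. Against untreated rat 1 it was higher for 18 of 25 members, with a median of 0.34. Against untreated rat 2 it was higher for 13 of 25, with a median of 0.012. The same medians over all genes were -0.011 and -0.0032. Thiamine rat 1 was the highest of all 4 livers for 13 of the 25 members and thiamine rat 2 for 1. Untreated rat 1 was highest for 2 members and untreated rat 2 for 9. Among the 8217 genes, thiamine rats 1 and 2 were highest for 1720 and 1880. Untreated rats 1 and 2 were highest for 2590 and 2027 of them.

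**Figure D4:**
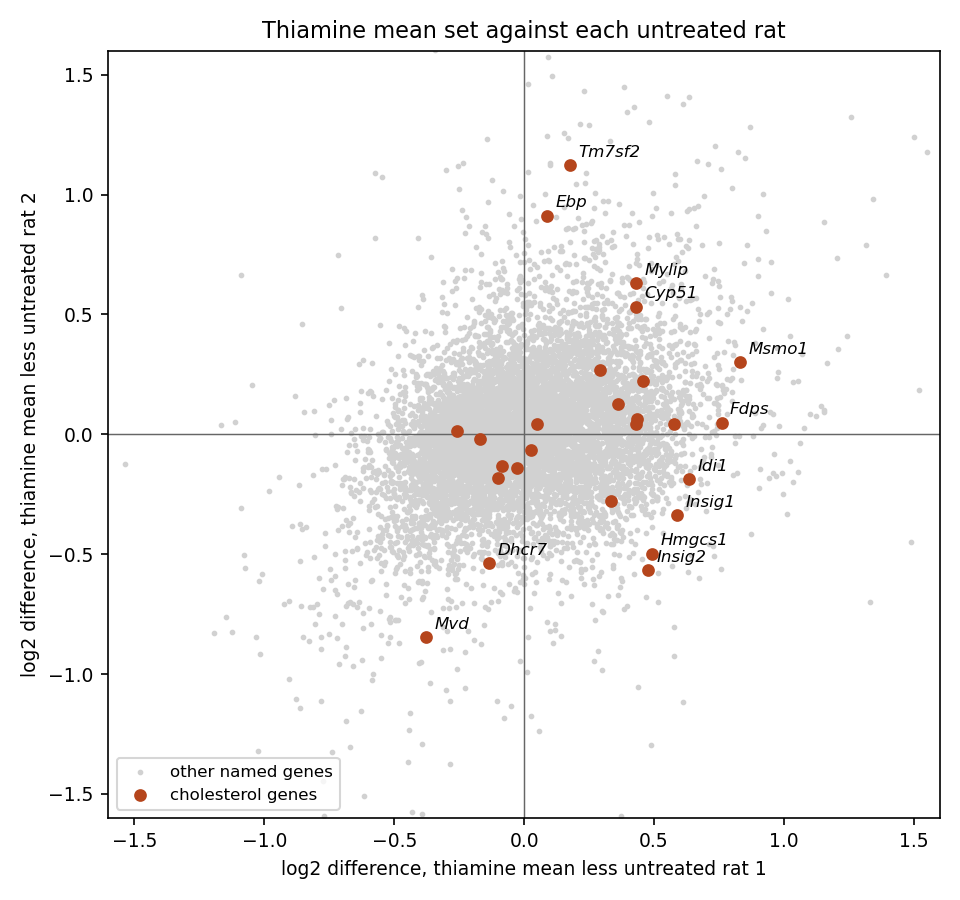
Log2 difference of the thiamine mean from untreated rat 1 (horizontal) and from untreated rat 2 (vertical) for the cholesterol genes (red) and other named genes (grey; points beyond 1.6 on either axis are not drawn). Hmgcs1, Insig1 and Insig2 lie at 0.48 to 0.59 on the horizontal axis and -0.34 to -0.57 on the vertical one, whereas Tm7sf2 and Ebp lie at 0.18 and 0.09 against 1.12 and 0.91.

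Many promoters of this route are known to carry sites for SREBP and for the factors that act beside it, so the sequence before each start was searched. RefSeq windows (GRCr8) were found for 23 of the 28 genes, and the 250 bases before the start were read on both strands. All 250 bases of the Hmgcs1, Srebf2 and Insig2 windows lay inside the annotated gene span, and each of these windows held a CCAAT box. The windows of Tm7sf2, Nsdhl, Hsd17b7, Ebp, Scap, Insig1, Mylip and Soat1 lay inside it in part. The sterol element TCACNCCAC was in none of the 23 windows, and in 0.974% of all 33469 windows; this says only that these letters are not there. The CCAAT box, which NF-Y binds beside SREBP at many sterol genes, was in 19 of 23, against 34% of all windows and 36.1% of windows of 7409 other measured genes. The Sp1 box GGGCGG was in 18 of 23, against 57.8% of those measured genes, and the E-box CANNTG in 12 of 23, against 56.6%. A match describes letters and not binding.

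In the windows below, read 5′ to 3′ along the gene, capitals mark CCAAT or its reverse complement ATTGG. The 5 genes were picked after their values were seen, to show windows with many boxes and with none: Idi1, Fdps and Msmo1 had untreated rats over 0.5 apart, and Mvk and Cyp51 had them 0.05 and 0.10 apart. 
Idi1, chr17:66547525-66547774, minus strand: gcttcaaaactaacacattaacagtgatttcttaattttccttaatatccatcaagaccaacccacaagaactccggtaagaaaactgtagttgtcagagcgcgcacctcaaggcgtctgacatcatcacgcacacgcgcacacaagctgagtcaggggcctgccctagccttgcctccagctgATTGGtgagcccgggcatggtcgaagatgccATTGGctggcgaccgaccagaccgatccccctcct
Fdps, chr2:176804817-176805066, minus strand: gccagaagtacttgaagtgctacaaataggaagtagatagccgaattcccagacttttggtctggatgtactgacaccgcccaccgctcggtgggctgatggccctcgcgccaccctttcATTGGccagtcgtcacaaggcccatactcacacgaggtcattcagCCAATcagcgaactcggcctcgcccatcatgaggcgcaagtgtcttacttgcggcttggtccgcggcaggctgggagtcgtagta
Msmo1, chr16:29746863-29747112, plus strand: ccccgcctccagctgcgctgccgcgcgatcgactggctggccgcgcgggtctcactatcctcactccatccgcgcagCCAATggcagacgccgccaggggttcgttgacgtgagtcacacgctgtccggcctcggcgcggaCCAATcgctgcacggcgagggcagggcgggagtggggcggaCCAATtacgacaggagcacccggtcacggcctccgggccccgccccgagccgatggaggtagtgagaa
Mvk, chr12:47819504-47819753, minus strand: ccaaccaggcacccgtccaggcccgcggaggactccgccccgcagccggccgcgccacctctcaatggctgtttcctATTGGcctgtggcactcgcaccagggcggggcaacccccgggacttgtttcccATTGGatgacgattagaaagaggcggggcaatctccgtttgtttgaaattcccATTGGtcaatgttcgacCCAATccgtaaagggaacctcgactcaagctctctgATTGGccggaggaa
Cyp51, chr4:30991443-30991692, plus strand: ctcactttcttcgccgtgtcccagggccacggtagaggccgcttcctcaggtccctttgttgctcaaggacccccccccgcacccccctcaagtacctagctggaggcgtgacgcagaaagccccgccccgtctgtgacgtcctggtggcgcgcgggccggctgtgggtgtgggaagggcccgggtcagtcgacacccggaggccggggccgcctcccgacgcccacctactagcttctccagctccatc
The window of Idi1 holds 2 such boxes, that of Fdps 2, that of Msmo1 3, that of Mvk 5 and that of Cyp51 none. Whether the number of boxes goes with the gap between the untreated rats was not tested. Nsdhl, with untreated rats 0.08 apart, also has 5 boxes. Acat2, Dhcr7 and Scap, with untreated rats 0.39, 0.40 and 0.27 apart, have none. The members with the widest gaps, Insig2, Hmgcs1, Tm7sf2 and Insig1, have 1, 2, 1 and 1.

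Genes around the route shared no direction. Of 42 other listed genes of sterol transport, esters, bile acid outflow and prenyl branches, 33 were measured, 16 above 0 and 17 below, with a median of -0.0033, and limma called 0 of them. At an unadjusted p under 0.05 2 were higher, where 3.05% of all genes were, and 1 was lower, where 2.76% were. Nceh1, a cholesteryl ester hydrolase studied mainly in macrophages, was at 10.20 and 10.30 in the thiamine rats, against 9.49 and 9.15 in the untreated rats. It had the smallest p of the list, with no overlap and a difference of 0.93 ± 0.19 (adjusted p = 0.22). Nr0b2, which represses bile acid synthesis, was at 11.22 and 11.05 in the thiamine rats, against 12.21 and 11.69 in the untreated rats. Cyp27a1, a sterol hydroxylase of bile acid synthesis, was at 13.73 and 13.83 in the thiamine rats, against 13.48 and 13.16 in the untreated rats. Next in order were Pdss2, of coenzyme Q synthesis, at -0.35 ± 0.21, and Cnbp, a nucleic acid binding protein, at 0.24 ± 0.19.

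No marker of another liver cell type was called by limma, and the part of these cells in the values above was not tested. Of 11 macrophage markers 10 were measured, 9 above 0 and 1 below, with a median of 0.62; Marco, the remaining one, was not among the measured genes. At an unadjusted p under 0.05 6 of them were higher, where 3.05% of all genes were. Their summed linear intensity was 32674 and 23821 in thiamine rats 1 and 2, against 23951 and 16522 in untreated rats 1 and 2, so that the sums overlapped. By gene, both thiamine rats were above both untreated rats for 6 of the 10, a separation that 17.4% of all genes had. Both were below for 1, against 19.4% of all genes. Of 7 markers of sinusoidal endothelium 6 were measured, 2 of them higher at an unadjusted p under 0.05, where 3.05% of all genes were. Both thiamine rats were above both untreated rats for 3 of the 6, against 17.4% of all genes, and below them for 0. Their sum was 5385 and 4872 in the thiamine rats, against 3871 and 3707 in the untreated rats. For stellate cells 2 of 6 markers were measured, both below 0, and for cholangiocytes 2 of 5, of which 1 was above 0 and 1 below. Of the hepatocyte markers, the 4 saturated ones cannot show a difference. The other 4, Apoa1, Fgb, Tat and Cps1, summed to 40169 and 49688 in the thiamine rats, against 44987 and 38524 in the untreated rats, which overlapped. Such a sum weights bright probes most, here Apoa1. By gene, Cps1 was at 13.21 in both thiamine rats, against 12.77 and 12.58 in the untreated rats. Its pairs did not overlap, with a difference of 0.53 ± 0.18, and limma did not call it. Tat (0.51 ± 0.36), Apoa1 (-0.12 ± 0.18) and Fgb (-0.05 ± 0.18) overlapped between the groups. Untreated rat 2 had the lowest macrophage and endothelial sums, and also the lowest sum of the 4 unsaturated hepatocyte markers. It was the lowest liver for Cyp51, Tm7sf2 and Ebp, while untreated rat 1 was the lowest liver for 14 members. Whether these sums and levels go together was not tested.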

How the data were processed

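Liver RNA of 4 rats was measured on 1 array each. Per the file headers, the scanner reports came from CodeLink Expression Analysis 5.0.0.31312 and give spot mean and local background as a linear intensity with a quality flag. The authors' deposited value table holds intensity values with column medians between 147.483 and 147.506 and keeps the scanner order (rho of 1.00). How it was made is not stated here by any source, and it served as an alternative.

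The background was corrected with normexp (offset 50) over 35129 features. The 1280 control features were left out and log2 values of 33849 gene probes were quantile normalised. A probe was kept (18664 were) where some group had no array with a near-background flag for it. Names came from the platform annotation, updated against RefSeq GRCr8; 367 probes, with both of Hmgcs1, were named through the accession in the reports. A gene is given by its brightest kept probe. The fit used limma 3.58.1 (R 4.3.3): lmFit, then eBayes, with two-sided p-values adjusted by Benjamini-Hochberg over the 18664 probes, a threshold of 0.05, and a check on simulated data. All 26 measured members are named, and of other pathway genes the 5 with the smallest unadjusted p. Members and lists were chosen with earlier results of these data known. Rats are separate animals per the labels. The labels give no sign that replicate numbers pair rats. Same-numbered rats' deviations correlated at -0.07 over probes.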

Additional observations from a re-analysis of the deposited data

How the results depend on the processing

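With all 4 arrays, no member was called under any of 8 alternative fits (background subtraction, an offset of 16, median scaling, no filter, only probes above background on all arrays, flagged spots left out, the authors' table, the replicate block), and 24 of the 25 members above background on all arrays kept their sign, also with a gene's probes averaged; Mylip was not in the fit of probes above background on all arrays and is left out of that count. The exception was Hmgcs1, at 0.0059 with the authors' table and 0.14 with its probes averaged. The replicate block called 126 of all probes against 0 without it, no member among them, and Nceh1 passed (adjusted p = 0.030); the numbers are not known to pair rats. Leaving out 1 rat called between 2 and 87 probes and 0 members, where a lone rat borrows the spread of the other group. The median of all 26 members, 0.18 with every rat, then lay between 0.026 and 0.35; over the 25 without Mylip, a restriction chosen after seeing the data, it was 0.13, and 17 of these kept their sign throughout. The others crossed 0: Hmgcs1 (-0.47 to 0.48), Mvk (-0.33 to 0.12), Idi1 (-0.18 to 0.63), Ggps1 (-0.12 to 0.080), Scap (-0.26 to 0.011), Insig1 (-0.35 to 0.58), Insig2 (-0.57 to 0.49) and Soat2 (-0.27 to 0.33). The cause was not tested. Signal limits Mylip, Soat1 and the second probes of Idi1, Sqle and Insig1, which were near background on some or all arrays.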
